A study of Mus musculus with 24 samples.

Results

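The comparison set lung epithelial cells of irradiated mice against those of sham-irradiated mice, 7 days after treatment, across 16626 genes. They are those of the table's 48795 gene identifiers that reached a normalised count of 10 in 4 or more of the 12 epithelial libraries. The irradiated mice were female Balb/c mice, 8 weeks old, whose lungs received 13 Gy and which were given a control IgG antibody. Sham mice were of the same strain, sex and age, and received a sham irradiation and the same control IgG. In a further group, irradiated mice received daily injections of an anti-Ly6G antibody that depletes neutrophils (the depleted libraries). That group entered the fit to add information on the spread and is otherwise cited only where stated. Cells were sorted as CD45-CD31-Ter119-EpCAM+ by the cell type entry, which removes leukocytes, endothelial cells and erythroid cells. The protocol text names CD45 where that entry has CD31. Each group had 4 mice with 1 library each, prepared from total RNA after ribosomal RNA was removed.

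Ionising radiation breaks DNA, and the broken ends activate the kinase ATM, which stabilises the transcription factor p53. p53 switches on genes that stop the cell cycle, that prepare the cell for death, and that limit p53 itself. The alveolar epithelium holds type 2 cells, which make surfactant and can renew the epithelium, and thin type 1 cells, which exchange gas.

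The irradiated libraries held 10884703 to 13373329 reads, and the sham libraries held 9776113 to 11710964. The number of genes detected was 23867 to 24672 in the irradiated libraries and 23000 to 23577 in the sham libraries, so these ranges did not overlap. Epcam, the adhesion molecule used in the sort, had 1053 to 1111 normalised counts in irradiated and 1107 to 1181 in sham libraries. Surfactant protein C (Sftpc), which marks type 2 cells, had 347300 to 402700 in irradiated and 366200 to 403300 in sham libraries. The fraction therefore carried its defining markers at high levels. Ptprc, which encodes CD45, had 191, 284, 104 and 160 normalised counts in the irradiated libraries and 80.0, 115, 50.9 and 28.1 in the sham libraries, although CD45-positive cells were to be removed. Fewer cells of a type and less RNA per cell cannot be told apart in such bulk libraries.

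At day 7, 522 of the 16626 genes (3.14%) differed between irradiated and sham epithelium at an adjusted p under 0.05 (limma with Benjamini-Hochberg adjustment). Of these, 376 (2.26%) were higher and 146 (0.878%) were lower in irradiated libraries. The rises were larger than the falls: 196 genes (1.18%) were higher by at least 2-fold, and 5 (0.0301%) were lower by at least 2-fold (Ccnjl, Ccr6, Npas2 and the predicted genes Gm16072 and Gm45753, the last pair named after their values were seen). The median log2 change over all tested genes was -0.0071. Each library had been scaled by 1 size factor, so this value cannot show whether all genes shifted together. The higher genes had a median level of 80.4 normalised counts and the lower genes 718. When a trend on gene length and GC content was removed from each library, 360 genes were higher and 315 lower, so the share of calls that were higher was 53.3%, against 72.0% without that step. Without irradiated replicate 2, 162 genes were higher and 52 lower, the lowest counts of the 12 fits that each left out 1 library. Without sham replicate 3 the counts were 210 and 65, without sham replicate 4 they were 211 and 76, and without irradiated replicate 4 they were 231 and 71. Without sham replicate 2, 90 genes were lower.

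**Figure D1:**
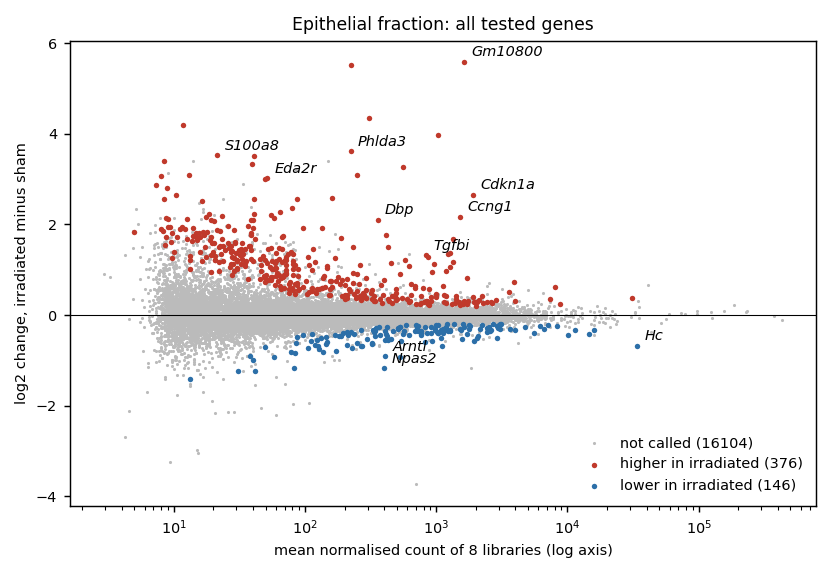
Log2 change (irradiated minus sham) of each of the 16626 tested genes against its mean normalised count over the 8 libraries, on a log axis. Red points are the 376 genes called higher, blue points the 146 called lower, and grey points the genes that were not called; the largest rises exceed 3 on the log2 scale, while no called fall among genes with a mean of at least 50 in the higher group exceeds 1.24.

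Genes of the p53 response made up the clearest block of rises. Of 63 tested genes in the 3 p53 lists, 32 (50.8%) rose and 0 fell, against 2.26% and 0.878% of all tested genes, and 53 had a positive log2 change. The 4 irradiated libraries lay above the 4 sham libraries for 14 of 20 genes of arrest and feedback and 8 of 14 of apoptosis and death receptors. They did so for 16 of 29 genes of repair, metabolism and other roles, and for 4.94% of all tested genes. In either direction, the groups did not overlap for 8.83% of all tested genes. Each of the 32 that rose had groups apart, as had 486 of all 522 called genes, so this adds little to the calls. Of the 32, all but Ak1 and Rap2b kept their call in each of the 12 fits that left out 1 library. Ak1 lost it without sham 2 or 3 or irradiated 2, with an adjusted p of up to 0.106, and Rap2b lost it without sham 3 or 4 or irradiated 2, with an adjusted p of up to 0.0854.

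In the list of p53 targets that stop the cell cycle or feed back on p53, 12 of 20 genes rose. The median log2 change over the 20 was 0.62, and the 20 included the apoptosis gene Pmaip1. Cdkn1a (ENSMUSG00000023067, GRCm38 chromosome 17, start 29090976, end 29100727), which encodes the cyclin-dependent kinase inhibitor p21, had 2545, 4162, 3126 and 3453 normalised counts in irradiated libraries and 532, 559, 533 and 455 in sham libraries. The lowest irradiated library was more than 4 times the highest sham library. The log2 change was 2.66 ± 0.187 (SE; adjusted p = 3.70e-05). Phlda3 (ENSMUSG00000041801, GRCm38 chromosome 1, start 135766119, end 135769136), which restrains the kinase Akt, had 337, 537, 375 and 404 in irradiated and 28.3, 32.9, 35.7 and 32.3 in sham libraries. Its irradiated libraries were each at least 9 times the highest sham library, and its log2 change of 3.62 ± 0.124 (adjusted p = 3.50e-12) was the largest among the named genes. Ccng1, which encodes cyclin G1, had 2448, 2925, 2088 and 2484 in irradiated and 486, 506, 575 and 628 in sham libraries (2.18 ± 0.116 on the log2 scale, adjusted p = 2.01e-07). Smaller rises were those of Trp53inp1 (1.36 ± 0.201), a stress-induced nuclear protein gene, of Zmat3 (1.22 ± 0.0945), an RNA-binding protein gene, and of Sesn2 (1.14 ± 0.115), which restrains mTORC1. Mdm2, the ligase that degrades p53, had 755, 949, 784 and 906 in irradiated and 510.3, 557, 539 and 557 in sham libraries and rose by 0.64 ± 0.0838. Btg2, an antiproliferative gene, rose by 0.35 ± 0.0633 from a high level, with 8296 ± 659 normalised counts in irradiated and 6475 ± 45.4 in sham libraries (SD, n = 4 each).

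In the list of apoptosis genes and death receptors, 7 of 14 rose, with a median of 0.54. The 7 included Dcxr, a metabolic reductase gene that is neither (0.94 ± 0.101). Bax, which permeabilises mitochondria, had 252, 343, 284 and 278 normalised counts in irradiated and 91.7, 82.8, 82.2 and 92.6 in sham libraries, a log2 change of 1.71 ± 0.117 (adjusted p = 5.85e-08). Aen, which encodes a nuclease of apoptotic cells, had 546, 754, 567 and 678 in irradiated and 201, 162, 178 and 201 in sham libraries (1.77 ± 0.106, adjusted p = 4.39e-08). Both genes had wide gaps between the groups. Of the receptor genes in that list, Eda2r, which binds ectodysplasin A2, had 82.2, 114, 79.3 and 94.9 in irradiated and 16.6, 10.6, 8.93 and 7.29 in sham libraries (3.03 ± 0.215). Tnfrsf10b, the mouse TRAIL receptor, rose by 1.35 ± 0.141, and Fas by 1.24 ± 0.19. Apaf1, which assembles the apoptosome, rose by 0.48 ± 0.0822. Bbc3, which encodes the BH3-only protein Puma, did not pass the test (0.41 ± 0.177, adjusted p = 0.277). In the separate list of genes that oppose or execute cell death, 0 of 17 rose and 1 fell. The gene that fell was Bik, another BH3-only gene, with 70.5, 58.3, 66.4 and 71.5 in irradiated and 108, 114, 99.1 and 89.5 in sham libraries (-0.61 ± 0.123, adjusted p = 0.00892). Pmaip1, also a BH3-only gene, was counted in the arrest and feedback list and rose by 2.22 ± 0.42 (adjusted p = 0.00661 by limma). Its counts were low, with 39.2, 27.6, 24.3 and 29.7 in irradiated and 8.78, 10.6, 7.145 and 1.04 in sham libraries.

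Of p53 targets in repair, metabolism and other roles, 13 of 29 rose, with a median of 0.55. Dglucy, which encodes the mitochondrial D-glutamate cyclase, had 387, 496, 412 and 477 normalised counts in irradiated and 43.9, 62.6, 48.2 and 49.96 in sham libraries (3.09 ± 0.127, adjusted p = 1.26e-10). The stress cytokine gene Gdf15 had 270.1, 338, 236 and 257 in irradiated and 59.5, 53.1, 36.6 and 34.4 in sham libraries (2.59 ± 0.167). Psrc1, a microtubule-associated protein gene, had 125, 188, 125 and 153 in irradiated and 29.3, 30.8, 19.7 and 18.7 in sham libraries (2.55 ± 0.191). Each of these 3 genes was at least 3 times as high in its lowest irradiated library as in its highest sham library. Slc19a2, a thiamine transporter gene, rose by 1.91 ± 0.127, and Ephx1, an epoxide hydrolase gene, rose by 1.68 ± 0.0811 with 2047 ± 241 in irradiated and 639.7 ± 62.7 in sham libraries. Ddit4l, an inhibitor of mTORC1, rose by 2.14 ± 0.209, and Polk, a DNA polymerase that copies past damaged bases, rose by 0.94 ± 0.106. Abcb1b, a drug efflux pump gene, rose by 1.85 ± 0.309 at low counts of 27.5 to 37.8 in irradiated and 4.47 to 14.9 in sham libraries.

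Not every known p53 target moved. Trp53 itself had 247 ± 10.1 normalised counts in irradiated and 250.4 ± 8.68 in sham libraries (log2 -0.02 ± 0.083). Sesn1 (-0.02 ± 0.0839), the phosphatase gene Ppm1d (0.06 ± 0.0954), the nucleotide excision repair genes Ddb2 (0.07 ± 0.0918) and Xpc (0.05 ± 0.0927), the ribonucleotide reductase gene Rrm2b (-0.01 ± 0.0692) and the junction gene Perp (0.04 ± 0.128) did not pass the test. Sesn3 had the most negative value of the 63 genes, -0.43 ± 0.112, and also did not pass (adjusted p = 0.0587). In a separate list of genes that sense and repair DNA breaks, 0 of 29 passed in either direction by limma, and 0 were called by edgeR or DESeq2. Of these genes 0 had an unadjusted p under 0.05, against 14.3% of all tested genes, and the median was -0.07.

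**Figure D2:**
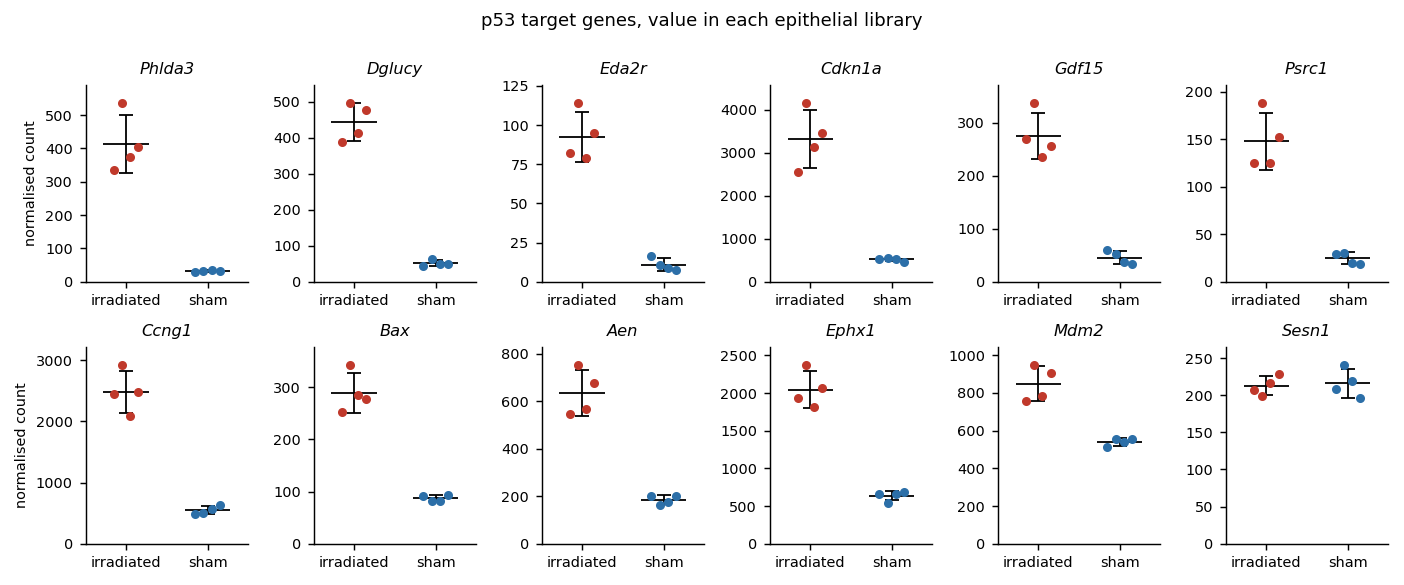
Normalised count in each epithelial library for 12 p53 target genes, irradiated (red) left of sham (blue); the horizontal line is the mean and the bar the SD of 4 libraries, and each vertical axis starts at 0. In 11 panels the groups do not overlap; Sesn1 overlaps, with 199 to 228 in irradiated and 196 to 241 in sham libraries.

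Promoter stretches of 5 p53 targets that rose are shown because they hold the p53 decamer, a single unit of the paired element that p53 binds. A window from 250 bases before to 50 bases after the start of the gene was taken from RefSeq (GRCm38.p6) for 11162 of the tested genes, and both strands were searched for the p53 decamer. The decamer stood in the windows of 11 of the 28 p53-list genes that rose and had a window (39.3%), in 43 of the 280 windows of all genes that rose (15.4%), in 3 of the 100 windows of genes that fell (3.0%), and in 8.48% of all windows. A pair of full decamers joined with no base between them stood in 0 of the 28 and in 0 of all 11162 windows. A pattern that fixed only the central bases C, A, T and G of each decamer in such a pair was also searched. That pattern stood in 1 of the 28 (Cdkn1a) and in 40 of all 11162 windows (0.358%). A match is a description of letters and not a measured binding site. Each stretch is read 5′ to 3′ on the strand of the gene, with the decamer in capitals.
Cdkn1a, chr17:29090866-29090977, plus strand: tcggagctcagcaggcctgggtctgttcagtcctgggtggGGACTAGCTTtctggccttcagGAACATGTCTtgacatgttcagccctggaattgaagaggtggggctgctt
Ccng1, chr11:40755422-40755511, minus strand: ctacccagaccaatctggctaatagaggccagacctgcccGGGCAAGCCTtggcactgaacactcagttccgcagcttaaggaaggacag
Bax, chr7:45467050-45467139, minus strand: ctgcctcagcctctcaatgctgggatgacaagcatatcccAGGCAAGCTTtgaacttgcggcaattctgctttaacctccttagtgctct
Aen, chr7:78895897-78895986, plus strand: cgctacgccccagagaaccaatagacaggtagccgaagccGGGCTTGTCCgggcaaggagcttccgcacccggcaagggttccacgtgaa
Mdm2, chr10:117710895-117710984, minus strand: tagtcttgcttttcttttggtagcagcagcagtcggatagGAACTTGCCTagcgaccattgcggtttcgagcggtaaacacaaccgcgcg
Cdkn1a held 2 decamers in this stretch.

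Genes of the circadian clock moved in opposite directions. The clock is a loop in which Arntl (also called Bmal1), paired with Clock or Npas2, activates the Per, Cry and Nr1d genes through the E-box CACGTG, and the products of these genes then repress the loop. Of 16 core loop genes, 3 rose (Per2, Per3 and Nr1d2) and 3 fell (Npas2, Arntl and Cry1), and of 16 clock output genes 6 rose and 0 fell. Of all tested genes 2.26% rose and 0.878% fell. Median log2 changes were 0.08 for the core loop and 0.51 for the output genes.

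On the activating side, Npas2 had 261, 202, 303 and 209 normalised counts in irradiated and 367, 641, 681 and 540.2 in sham libraries, with a log2 change of -1.17 ± 0.182 (adjusted p = 0.00488). Arntl had 288, 225, 344 and 277 in irradiated and 424, 589, 581 and 533 in sham libraries (-0.91 ± 0.143, adjusted p = 0.00339). All irradiated libraries lay below all sham libraries for both genes, as they did for 3.89% of all tested genes. Clock had 1496, 1235, 1145 and 1231 in irradiated and 1378, 1555, 1710 and 1655 in sham libraries, which overlapped and did not pass (-0.30 ± 0.0869, adjusted p = 0.0707). On the repressing side, Per2 had 1143, 1558, 1226 and 1278 in irradiated and 878, 449, 498 and 629 in sham libraries (1.12 ± 0.184, adjusted p = 0.0093). Per3 had 1578, 1999, 1473 and 1813 in irradiated and 1141, 693, 661 and 859.7 in sham libraries (1.06 ± 0.164, adjusted p = 0.00619). Sham replicate 1 was the highest sham library for both Per2 and Per3, and still lay below each irradiated library. Per1 (0.37 ± 0.203, adjusted p = 0.481) and Nr1d1 (0.41 ± 0.157, adjusted p = 0.246) overlapped between the groups and did not pass. Nr1d2, which encodes the repressor REV-ERB beta, rose by 0.81 ± 0.153, and Cry1 had a log2 change of -0.66 ± 0.156.

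Among outputs, Dbp, a transcription factor gene, had 490.3, 634, 569.6 and 562 normalised counts in irradiated and 303, 90.2, 70.6 and 147 in sham libraries (2.10 ± 0.435, adjusted p = 0.035). The sham libraries of Dbp spread more than 4-fold among themselves, with replicate 1 highest. Bhlhe41, a repressor of E-box genes, had 74.4, 66.2, 56.6 and 57.1 in irradiated and 24.4, 24.4, 10.7 and 20.8 in sham libraries (1.67 ± 0.231, adjusted p = 3.34e-04). Tef rose by 1.16 ± 0.21, Ciart by 1.20 ± 0.243, Usp2 by 0.53 ± 0.133 and Wee1, a kinase gene that delays mitosis, by 0.38 ± 0.0798. Of the 12 clock genes called, 5 (Npas2, Arntl, Per2, Per3 and Bhlhe41) kept the call in every fit that left out 1 library. Dbp lost it without sham 2 or 3 or 4 or irradiated 1 or 2 or 3 or 4 or depleted 1 (adjusted p up to 0.122), Cry1 without sham 2 or 3 or 4 or irradiated 1 or 2 or 4 (0.109), Usp2 without sham 1 or 2 or 3 or irradiated 2 or 4 (0.141), Tef without sham 3 or 4 or irradiated 2 or 4 (0.0703), Nr1d2 without irradiated 2 or 4 (0.0674), and Wee1 and Ciart without irradiated 2 (0.0576 and 0.0523). Without irradiated replicate 2 the number of output genes that rose was 1. The labels give the day but not the hour at which lungs were taken, so time of day was not tested. In the mesenchymal fraction, tested in its own table, Per2 changed by 1.25, Per3 by 1.36, Npas2 by -0.67 and Arntl by -0.58.

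Promoter stretches of 3 clock genes are shown for the E-box CACGTG, which is its own reverse complement. It stood in the windows of 4 of the 10 called clock genes that had one (Bhlhe41, Ciart, Cry1 and Tef), and in 11.3% of all windows. Capitals mark the E-box.
Ciart, chr3:95882229-95882384, minus strand: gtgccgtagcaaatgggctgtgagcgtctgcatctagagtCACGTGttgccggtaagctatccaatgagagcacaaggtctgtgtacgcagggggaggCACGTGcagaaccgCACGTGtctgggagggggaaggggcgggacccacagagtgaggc
Bhlhe41, chr6:145865528-145865613, minus strand: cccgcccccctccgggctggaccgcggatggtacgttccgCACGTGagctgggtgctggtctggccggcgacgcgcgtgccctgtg
Tef, chr15:81802506-81802591, plus strand: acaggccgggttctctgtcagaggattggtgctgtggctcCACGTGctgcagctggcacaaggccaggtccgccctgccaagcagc
Ciart held 3 E-boxes within this stretch.

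**Figure D3:**
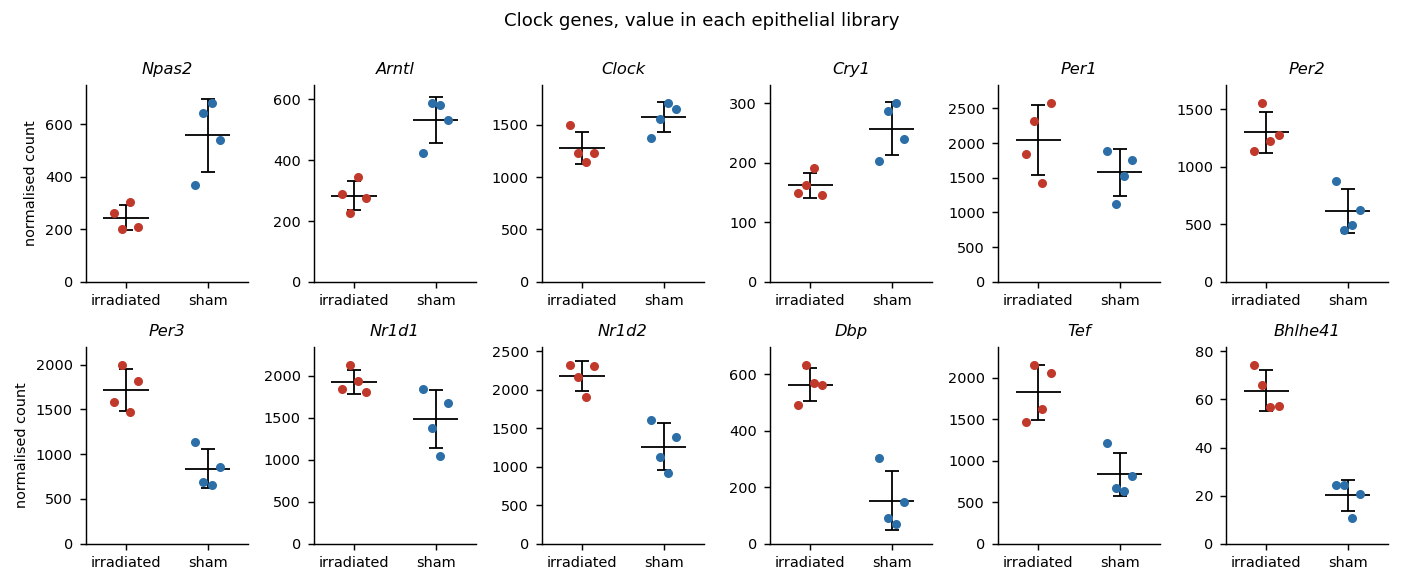
Normalised count in each epithelial library for 12 clock genes, irradiated (red) left of sham (blue); the line is the mean and the bar the SD of 4 libraries, and each vertical axis starts at 0. Npas2, Arntl and Cry1 are lower and Per2, Per3, Nr1d2, Dbp, Tef and Bhlhe41 higher in every irradiated library, while Clock, Per1 and Nr1d1 overlap.

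Some genes of matrix breakdown rose. The plasminogen system turns plasminogen into plasmin at the cell surface, and metalloproteases cut matrix proteins. Of 27 tested genes 7 rose and 1 fell, against 2.26% and 0.878% of all tested genes, and the median log2 change was 0.50. Plau, the urokinase gene, had 26.4, 45.7, 29.1 and 30.6 normalised counts in irradiated and 8.78, 19.1, 4.47 and 5.20 in sham libraries (1.88 ± 0.34, adjusted p = 0.00423). Its receptor gene Plaur had 66.6, 102, 84.2 and 61.1 in irradiated and 36.1, 29.7, 39.3 and 29.1 in sham libraries (1.19 ± 0.21, adjusted p = 0.00361). The groups of both genes were apart, at low counts for Plau. Adamts1, a secreted metalloprotease gene, had 1857, 1420, 1750 and 1315 in irradiated and 889.8, 866, 702 and 762 in sham libraries (0.97 ± 0.137, adjusted p = 0.00272). Mmp2 rose by 0.58 ± 0.103 and the lysosomal protease gene Ctsd by 0.39 ± 0.0661. Mmp9, which neutrophils also carry, had 9.79, 26.8, 13.0 and 14.5 in irradiated and 1.95, 1.06, 3.57 and 0 in sham libraries. Serpinb6b had a log2 change of -0.31 ± 0.0793, and lost its call without sham 1 or 2 or 3 or 4 or irradiated 2 or 3 or 4 or depleted 1 or 2 (adjusted p up to 0.187). With the level of leukocyte markers as a covariate, 0 of the 27 were called.

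Lists of secreted signals and matrix proteins held fewer calls, to be read against the 2.26% of all tested genes that rose and the 0.878% that fell. Tgfbi, which encodes a matrix protein induced by TGF-beta, had 1155, 1251, 1172 and 1164 normalised counts in irradiated and 611, 396, 436 and 477 in sham libraries (1.32 ± 0.101, adjusted p = 1.30e-06). Its irradiated libraries lay within a narrow band, all well above the sham libraries. In the mesenchymal table its log2 change was -0.22, and the difference between the tables was not tested. Tgfbi and Gdf15 were the 2 of 29 genes in the TGF-beta, BMP and activin list that rose. Lif, a cytokine gene of the interleukin-6 family, had 115, 132, 73.6 and 134 in irradiated and 45.9, 31.8, 41.1 and 48.9 in sham libraries (1.40 ± 0.18, adjusted p = 1.80e-04). Lif was the 1 of 28 inflammatory cytokine and NF-kB genes that rose, and the interleukin-1 receptor gene Il1r1 was the 1 that fell (-0.40 ± 0.0948), a call lost without sham 3 or 4 or irradiated 2 or 3 (adjusted p up to 0.104). Igfbp4, which binds insulin-like growth factors, rose by 0.69 ± 0.102. Of 18 senescence and secreted factor genes 4 rose, among them Igfbp4, Plau and Plaur, a count of 3 when sham 3, sham 4, irradiated 2 or irradiated 4 was left out and of 6 without irradiated replicate 1. Of 34 collagen and matrix genes, 3 rose: Col3a1 (0.43 ± 0.0832), Col1a2 (0.28 ± 0.0669) and Nid1 (0.30 ± 0.0801). Only Col3a1 of these 3 kept its call in every fit that left out 1 library; Col1a2 lost it without sham 3 or 4 or irradiated 2, and Nid1 without sham 1 or 2 or 4 or irradiated 1 or 2 or 3 or 4 or depleted 2 (adjusted p up to 0.122 and 0.182). Of 27 type I interferon response genes, 1 rose (Trim30a, 1.81 ± 0.431, lost without sham 2 or irradiated 2 or 3 or 4, adjusted p up to 0.118).

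Complement genes went both ways, with 2 of 17 higher and 2 lower, against 2.26% and 0.878% of all tested genes. Hc (ENSMUSG00000026874, GRCm38 chromosome 2, start 34983331, end 35061438), which encodes complement C5 and is made by type 2 cells, had 29680, 23610, 26140 and 24700 normalised counts in irradiated and 37910, 44160, 41380 and 43320 in sham libraries. Every irradiated library was below every sham library, and the log2 change was -0.68 ± 0.103 (adjusted p = 0.00279). C4b had 810.4, 1540, 1203 and 1380 in irradiated and 544, 568, 449 and 434 in sham libraries and rose by 1.28 ± 0.198. C6 (-0.28 ± 0.0603) and the C5a receptor gene C5ar1 (1.75 ± 0.389) lost their calls without sham 4 or irradiated 2 and without sham 3 or 4 or irradiated 2 (adjusted p up to 0.0698 and 0.0941). The number of complement genes that rose was 8 without irradiated replicate 1, and 1 without irradiated replicate 2 or sham replicate 3 or 4.

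Most cell identity genes did not pass the test. Of 24 type 2 markers, 0 rose and 3 fell, against 2.26% and 0.878% of all tested genes, with a median log2 change of -0.02. The 3 were Hc, the mucin gene Muc1 (-0.24 ± 0.06) and Sfta2 (-0.41 ± 0.0925), which encodes a surfactant-associated protein; Muc1 lost its call without sham 1 or 2 or 3 or 4 or irradiated 2 or 4 or depleted 1 or 2 and Sfta2 without sham 1 or 3 or irradiated 2 or 4 (adjusted p up to 0.164 and 0.0747). Sftpc (-0.02 ± 0.0585), Sftpa1 (0.08 ± 0.0527) and Sftpb (0.09 ± 0.0613), the surfactant protein genes that dominate these cells, did not pass. Of 20 type 1 markers 0 were called by limma, and 1 had an unadjusted p under 0.05, against 14.3% of all tested genes. Of 17 tested markers of the transitional state between type 2 and type 1 cells, 2 rose. These were Cdkn1a and Plaur, while Krt8, the defining keratin of that state, had 1597, 1539, 1535 and 1712 in irradiated and 2090, 1860, 1796 and 1858 in sham libraries (-0.25 ± 0.0747, adjusted p = 0.0793). Pcyt1a, which makes the head group donor for phosphatidylcholine, fell (-0.34 ± 0.0632 on the log2 scale, adjusted p = 0.00504), with 1366 ± 58.6 normalised counts in irradiated and 1730 ± 68.1 in sham libraries. Lpin1 rose by 0.44 ± 0.0822 and Fads2 by 0.43 ± 0.0967, of 28 genes of fatty acid and surfactant lipid synthesis; Fads2 lost its call without sham 2 or irradiated 2 or 3 (adjusted p up to 0.0778). The immediate early genes Fosb (-0.44 ± 0.0664) and Fos (-0.33 ± 0.0613) fell, 2 of 26 heat shock and immediate early genes.

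Airway genes showed how the sham libraries differed among themselves. Scgb1a1, the secretoglobin of club cells, had 38880, 39250, 34340 and 34600 normalised counts in irradiated and 33520, 35110, 68190 and 63100 in sham libraries. Sham replicates 3 and 4 stood apart above all others, and the gene did not pass (-0.37 ± 0.235, adjusted p = 0.55). Over 19 club and secretory markers, 1 rose and 0 fell, against 2.26% and 0.878% of all tested genes, and the median was -0.37. The gene that rose was Cbr2, which encodes a carbonyl reductase, with 32990, 37020, 35490 and 34000 in irradiated and 28080, 24690, 26780 and 28110 in sham libraries (0.37 ± 0.0561, adjusted p = 8.38e-04). Of 24 ciliated markers, Tppp3 fell (-0.45 ± 0.081) and 0 rose. Single calls in lists of this size lie near the shares over all tested genes and say little about the lists. Of 7 tested basal markers 0 were called by limma, and 2 had an unadjusted p under 0.05, against 14.3% of all tested genes. Krt5, their defining keratin, had 53.8, 0.788, 0.809 and 8.04 in irradiated and 14.6, 22.3, 31.3 and 26.0 in sham libraries.

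The mean log2 level of cell cycle genes was lower in most irradiated libraries, but 1 library differed. Summed normalised counts over the list overlapped, at 5570, 4508, 4294 and 4325 in irradiated and 4511, 4058, 4516 and 4724 in sham libraries. Of 32 tested genes 1 rose and 0 fell, only 4 had a positive log2 change, the median was -0.41, and 10 had an unadjusted p under 0.05. Over all tested genes 2.26% rose, 0.878% fell, 48.1% had a positive log2 change and 14.3% had an unadjusted p under 0.05. Mki67, the proliferation marker, had 287, 98.5, 81.7 and 74.0 normalised counts in irradiated and 245, 186, 247 and 238 in sham libraries. Irradiated replicate 1 was above all sham libraries, and the other 3 were below them. Cenpf, a centromere protein gene, had 62.6, 18.1, 8.09 and 13.7 in irradiated and 62.4, 53.1, 57.2 and 59.3 in sham libraries, with the same library apart. Top2a, the topoisomerase of mitosis, had 113, 40.2, 29.1 and 31.4 in irradiated and 82.0, 73.2, 103 and 116 in sham libraries. Without irradiated replicate 1, 4 genes were called lower, namely Mki67 (log2 -1.42, adjusted p = 0.00182), Cenpf (-2.11, adjusted p = 0.00541), Top2a (-1.44, adjusted p = 0.0368) and Cenpe (-1.17, adjusted p = 0.0436). That fit called 217 of all 16626 tested genes lower. It leaves out the very library that stood apart for Mki67 and Cenpf, so these calls are no support for a fall in all irradiated libraries. Irradiated replicate 1 also had the highest Krt5 among irradiated libraries. The gene that rose with all libraries was Ccnd2, a D-type cyclin gene (0.24 ± 0.0614), which lost its call without sham 2 or 3 or 4 or irradiated 1 or 3 or 4 or depleted 1 or 2 (adjusted p up to 0.135).

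**Figure D4:**
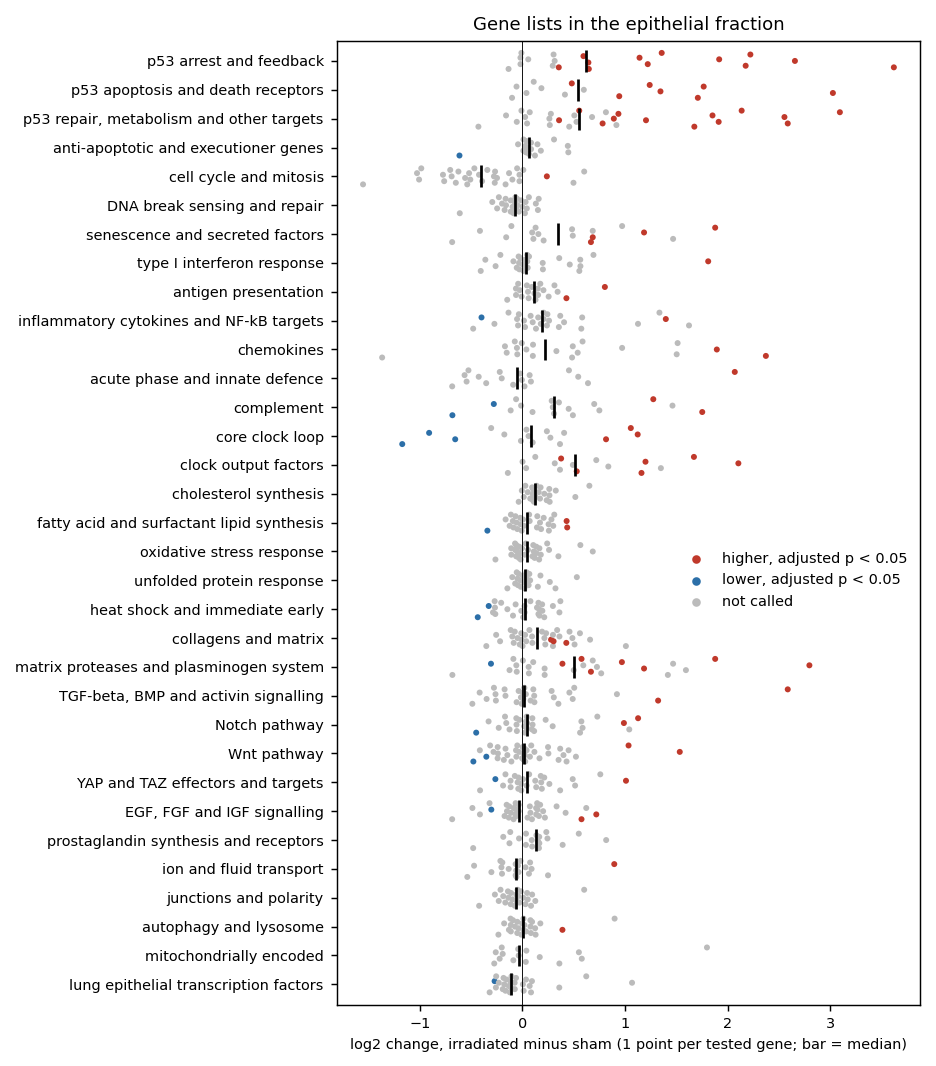
Log2 change (irradiated minus sham) of every tested member of the pathway lists, with 1 row per list and 1 point per gene; red and blue points passed an adjusted p under 0.05 and the black bar is the median. The 3 p53 lists reach furthest to the right with 32 of 63 genes called higher, the cell cycle list has a median of -0.41, and the DNA break list has 0 called genes.

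The remaining pathway lists held few called genes, beside 2.26% higher and 0.878% lower over all tested genes, and each of their calls except that of Ctsd was lost in at least 1 of the 12 fits that left out a library. Of 29 Notch genes 2 rose (the receptor gene Notch4, 0.99 ± 0.252, and the ligand gene Dll1, 1.13 ± 0.286) and 1 fell (Dtx4, -0.45 ± 0.102), with a median of 0.04. Of 38 Wnt genes 2 rose (the secreted factors Sfrp2, 1.53 ± 0.395, and Rspo1, 1.03 ± 0.257) and 2 fell (the ligand gene Wnt2b, -0.48 ± 0.125, and the receptor gene Fzd7, -0.35 ± 0.0926), with a median of 0.01. Both that rose also stood in lists of cells outside the sorting gate, Sfrp2 as an adventitial fibroblast gene and Rspo1 as a mesothelial gene. Among 36 genes of EGF, FGF and IGF signalling, the ligand gene Nrg1 (0.72 ± 0.18) and the feedback inhibitor Spry4 (0.58 ± 0.119) rose and Met, the receptor of hepatocyte growth factor, fell (-0.30 ± 0.0715), with a median of -0.04. Of 27 YAP and TAZ genes Fjx1 rose (1.01 ± 0.267) and the kinase gene Stk4 fell (-0.26 ± 0.0657). In antigen presentation, Tap1 (0.43 ± 0.0955), a peptide transporter gene, and Nlrc5 (0.80 ± 0.206), an activator of MHC class I genes, were the 2 of 21 that rose. Ccl6 and Ccl9 (1.89 ± 0.483) were the 2 of 20 chemokine genes that rose, and Saa3 was the 1 of 18 acute phase and innate defence genes that did. Saa3 had 20.6, 71.7, 20.2 and 24.1 in irradiated and 4.88, 5.31, 10.7 and 5.20 in sham libraries, which did not overlap, with irradiated replicate 2 highest. Of 21 genes of ion and fluid transport the water channel gene Aqp1 rose (0.89 ± 0.175), which is also a gene of endothelial cells. Of 26 genes of autophagy and lysosome Ctsd rose, and of 27 lung epithelial transcription factors Irx2 fell (-0.27 ± 0.0714).

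No gene was called by limma in the lists of cholesterol synthesis (26 genes, 6 with an unadjusted p under 0.05), oxidative stress (30 and 7), the unfolded protein response (24 and 1), prostaglandins (19 and 3), junctions and polarity (26 and 9) and mitochondrially encoded genes (15 and 1). Over all tested genes 14.3% had an unadjusted p under 0.05. By edgeR 1 junction gene was lower (Cgn), and by DESeq2 2 genes each of cholesterol synthesis, oxidative stress and prostaglandins were higher, 1 junction gene was higher and 2 were lower. Of the cholesterol genes 24 of 26 had a positive log2 change, with a median of 0.12.

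Outside the lists, the largest rises also held Ddias, which protects cells from apoptosis after DNA damage, with 73.4, 85.9, 48.6 and 71.5 normalised counts in irradiated and 6.83, 8.49, 14.3 and 15.6 in sham libraries (2.57 ± 0.259). Snhg15, a long noncoding RNA gene, had 69.5, 102, 85.8 and 107 in irradiated and 21.5, 15.9, 22.3 and 15.6 in sham libraries (2.21 ± 0.187). Kcnk3, an acid-sensitive potassium channel gene, had 42.1, 37.0, 38.03 and 40.2 in irradiated and 81.0, 70.0, 75.02 and 78.1 in sham libraries (-0.93 ± 0.16, adjusted p = 0.00281). Ccr6, the receptor of the chemokine Ccl20, had 53.8, 41.8, 66.4 and 39.4 in irradiated and 95.6, 114, 142 and 104 in sham libraries (-1.18 ± 0.193). Both genes were lower in every irradiated library. Further falls whose calls every leave-one-out fit kept were Tg (-0.82 ± 0.171), which encodes thyroglobulin, Eya1 (-0.68 ± 0.12), a transcriptional coactivator gene, and Spaar (-0.69 ± 0.133), which encodes a small regulator of mTORC1. Further falls whose calls did not hold in every such fit were Ccnjl (-1.24), a cyclin J-like gene, Cdh16 (-0.92), a cadherin gene, Hepacam (-0.82), an adhesion gene, Serpinb9 (-0.69), which inhibits granzyme B, Zfp960 (-0.70), Klhl13 (-0.72) and Glipr2 (-0.69). Ccnjl lost its call without sham 2 or 3 or 4 or irradiated 2 or 4 (adjusted p up to 0.0984), Cdh16 without sham 1 or 2 or 3 or 4 or irradiated 2 or 3 or 4 or depleted 1 or 2 or 3 (0.136), and Hepacam without sham 1 or 2 or 3 or 4 or irradiated 2 or 4 or depleted 2 (0.14). Serpinb9 lost it without sham 1 or 2 or 3 or 4 or irradiated 2 or 3 or 4 or depleted 1 (0.111), Zfp960 without sham 2 or 3 or 4 or irradiated 2 (0.113), Klhl13 without sham 3 or irradiated 2 or 4 (0.0576) and Glipr2 without sham 3 or irradiated 2 (0.0576).

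Marker genes of cell types outside the sorting gate moved with the treatment. Of 138 tested genes in the 12 lists of such cells, 29 rose and 0 fell, against 2.26% of all tested genes, and 9 of the 29 kept the call in every fit that left out 1 library. Of 14 leukocyte genes 4 rose (Arhgdib, Laptm5, Coro1a and Itgb2), with a median of 1.32; the count was 1 without sham 3 or irradiated 4, 2 without sham 4 and 7 without sham 2. The 15 genes of the list summed to normalised counts of 3310 to 4371 in irradiated and 3052 to 3470 in sham libraries, most of it Lcp1, which did not differ in mean by more than its spread (2827 in irradiated and 2808 in sham libraries). Of 8 neutrophil genes 4 rose, with a median of 2.06, and 2 did without sham 3, sham 4, irradiated 2 or irradiated 4. S100a8 and Mmp9 were under 10 normalised counts in each sham library. They therefore passed the filter only through irradiated and depleted libraries, so this count and median rest partly on the filter. The same held for other outside genes, such as Rgs5 and Ccr2. S100a8 had 17.6, 73.3, 21.04 and 49.0 in irradiated and 1.95, 4.24, 4.47 and 0 in sham libraries (3.53 ± 0.621, adjusted p = 0.00945). S100a9, the other subunit of calprotectin, had 46.0, 158, 48.6 and 104 in irradiated and 13.7, 14.9, 8.93 and 3.12 in sham libraries (3.00 ± 0.626), a call lost without sham 3 or 4 or irradiated 2 or 4 (adjusted p up to 0.0975). The 13 genes of the neutrophil list summed to 339.8 to 1277 in irradiated and 323 to 2206 in sham libraries; most of the sham sum was Ltf, which airway glands also make, and Ly6g was at 0 in each sham library. Irradiated replicate 2 was the highest library for S100a8, S100a9, Csf3r (33.3, 135, 40.5 and 46.6 in irradiated and 13.7, 24.4, 10.7 and 5.20 in sham libraries) and Ptprc.

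Of 10 macrophage and monocyte genes 4 rose, a count of 1 without sham 3, sham 4, irradiated 2 or irradiated 4, of 2 without irradiated 1 or depleted 1 and of 6 without irradiated 3, with sums over the list of 773.5 to 1659 in irradiated and 424.6 to 709 in sham libraries. Ccl6, a chemokine gene, had 130.2, 249.8, 56.6 and 103 in irradiated and 33.2, 38.2, 18.8 and 9.37 in sham libraries (2.37 ± 0.495), but lost the call without sham 3 or 4 or irradiated 1 or 2 or 4 or depleted 1 (adjusted p up to 0.1). Of 22 endothelial genes 8 rose (Flt1, Cldn5, Egfl7, Tie1, Pecam1, Ramp2, Car4 and Lyve1), a count of 4 without sham 4 or irradiated 4, of 5 without irradiated 1 or 2 and of 15 without irradiated 3, with sums of 3224 to 5486 in irradiated and 2083 to 2748 in sham libraries. Flt1, a VEGF receptor gene, had 152, 221, 122 and 187 in irradiated and 76.1, 67.9, 54.5 and 45.8 in sham libraries (1.46 ± 0.21), and Lyve1, a hyaluronan receptor gene, had 57.7, 182, 75.3 and 119.8 in irradiated and 11.7, 24.4, 19.7 and 26.0 in sham libraries (2.28 ± 0.401). Both lists were higher in the irradiated libraries in their sums, without overlap. Of 17 alveolar fibroblast genes 1 rose, of 17 adventitial fibroblast genes 3, of 15 smooth muscle genes 1, of 10 pericyte genes 2, of 12 mesothelial genes 1, of 5 lymphocyte genes 1, of 6 erythroid and platelet genes 1 and of 3 glial and neuronal genes 0. Of 14 pan-epithelial genes 0 were called by limma or edgeR, while DESeq2 had 1 higher and 2 lower. An unadjusted p under 0.05 was found for 5 of the 14, against 14.3% of all tested genes. The part of such cells in the other results was not tested. When the mean log2 level of the leukocyte list entered the fit as a covariate, 38 genes were higher (0.229%) and 5 lower (0.0301%). Of these 43 genes, 18 stood in a p53 list, among them Phlda3, Dglucy, Ephx1, Gdf15, Aen, Bax, Ccng1 and Cdkn1a; 0 genes of the outside lists, the clock lists or the matrix protease list were called. That covariate differed between the groups itself, at 5.68 to 6.72 in irradiated and 4.10 to 5.51 in sham libraries, so the fit cannot tell the 2 apart. The leukocyte list is also an outside list, so the lack of calls among its genes was largely fixed in advance by the fit.

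**Figure D5:**
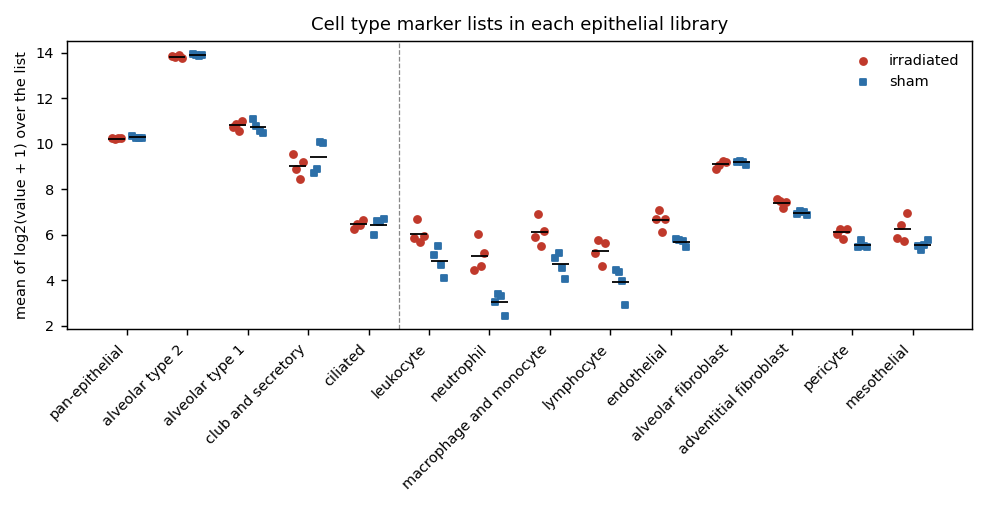
Mean of log2(normalised count + 1) over the tested genes of 14 cell type lists in each epithelial library, irradiated (red circles) left of sham (blue squares), with the mean of 4 libraries as a line. Left of the dashed line are epithelial types, among which the pan-epithelial level is 10.2 in irradiated and 10.3 in sham libraries; right of it are cells the gate should remove, where the neutrophil level averages 5.08 in irradiated and 3.06 in sham libraries.

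The mesenchymal fraction of the same study was fitted in its own table, so its values stand beside these with no test between them. There 439 genes were higher (2.64%) and 192 lower (1.15%). Over the 15092 genes tested in both tables, 142 were higher in both, which is 38.3% of the 371 epithelial and 34.4% of the 413 mesenchymal rises among them. The clock genes Npas2 and Arntl were the 2 genes lower in both, of 130 epithelial and 189 mesenchymal falls among them (1.54% and 1.06%). Those called in opposite directions numbered 4 (Clmn, Aox3 and Diaph1, lower in epithelium, and 1810010H24Rik, higher in epithelium), and are named after their values were seen. For Phlda3 the mesenchymal log2 change was 0.78, for Dglucy 1.25, for Ccng1 0.83, for Cdkn1a 2.11, for Eda2r 2.24 and for Aen 1.75. In irradiated mice given the anti-Ly6G antibody, whose epithelial libraries were compared with the same sham libraries, log2 changes were 3.84 for Phlda3, 2.90 for Cdkn1a and 1.16 for Per2. For the acute phase gene Saa3 the change was 6.08 in that group and 2.07 with the control IgG, and both were set against the same sham libraries. Of the neutrophil list genes that rose, Csf3r had a log2 change of -0.0042 in that group (adjusted p = 0.997 by limma) and 2.10 with the control IgG, S100a8 by 4.44 and 3.53, S100a9 by 2.91 and 3.00, and Mmp9 by 2.56 and 2.80.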

How the data were processed

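RNA was measured in 24 libraries of sorted lung cells, 12 of them epithelial. The deposited tables hold a signal, normalised counts, in which the counts of a library share 1 size factor as divisor. Per the submitters' processing notes, the tools were cutadapt 1.5, STAR 2.2.2a, SAMtools 1.8, RSEM 1.3.0 and DESeq2, on GRCm38; the annotation release is not given in the sources used here. Every positive value was a whole multiple of 1 step per library within 0.001, so whole reads were recovered from 100% of the values. A count of 0 allows up to 3 reads, a normalised count of 2.36 to 3.18 in these 8 libraries, which covers counting error alone. Symbols and positions came from GENCODE M21 for 48349 of 48795 identifiers, and 2 listed symbols (Ctgf and Cyr61) were matched by their newer names Ccn2 and Ccn1.

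The test was limma 3.58.1 (trend, robust) in R 4.3.3 on log2(value + 1), with the 12 epithelial libraries and 1 mean per group. Adjustment was by Benjamini-Hochberg over 16626 genes, with calls at an adjusted p under 0.05. Because of the pseudocount, log2 changes understate those of low genes. Errors beside log2 changes are standard errors of that fit. The mesenchymal table was fitted alone in the same way. Named genes were the 15 largest rises and falls among called genes with groups apart and a higher group mean of 50 or more (predicted genes, pseudogenes and small RNAs left out), called members of 53 gene lists, anchor genes of those lists, and, for lists with no call, the 2 members with the smallest p. The genes tested, the lists and the rules were chosen with earlier results of these data known, and some genes stand in more than 1 list. A list's count describes its members and is no test of the list.

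Alternatives were other pseudocounts, filters, scaling, a length and GC correction, library weights, the leukocyte covariate, a replicate block, leaving out each library, and edgeR 4.0.16 and DESeq2 1.42.0 on the recovered reads. No 2 libraries of a group were copies: chi-square per degree of freedom between them was 2.25 to 10.3. The scripts were tested on simulated data. Some genes chosen by the rule are not reported here.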

Additional observations from a re-analysis of the deposited data

Results flagged for a closer look

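In 368 groups of 4 libraries (184 named genes), 15 held a library whose gap to the next exceeded Dixon's 95% limit for 4 samples. Chance alone marks about 1 in 20 such groups.

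Irradiated replicate 2 stood above the other 3 irradiated libraries for Saa3 (71.7 normalised counts), Ctsd (2502), Csf3r (134.7) and Itga1 (323), and sham replicate 3 stood above the other sham libraries for Saa3 (10.7). Irradiated replicate 1 stood above its group for the proliferation gene Mki67 (286.8) and for the basal genes Krt5 (53.8) and Aqp3 (43.1). Irradiated replicate 3 stood below its group for Abcb1b (27.5), and above it for the globin gene Hbb-bs (49.4). Irradiated replicate 4 stood above its group for Epcam (1111). Sham replicate 2 stood below its group for Ephx1 (546.5) and Mki67 (185.7). Sham replicate 1 stood above its group for Rap2b (78.1) and for the pericyte gene Pdgfrb (100.5).

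Irx2, a transcription factor gene, was lower in every irradiated epithelial library and higher in every irradiated mesenchymal library. Its log2 change was 0.905 in the mesenchymal table, where it did not pass (adjusted p = 0.0909 by limma; mean 20.6 in irradiated and 10.04 in sham libraries). It was -0.27 in the epithelial table (adjusted p = 0.0462 by limma), a call that 4 of the 12 fits leaving out 1 library kept. The difference between the tables was not tested. Several epithelial markers had mesenchymal log2 changes of similar size, namely Epcam (0.87), Cdh1 (0.85), Krt8 (0.89) and Sftpc (0.79). The ciliated marker Tppp3 went the other way there (-0.14). Whether the mesenchymal value of Irx2 reflects epithelial RNA in that fraction was not tested.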

How the results depend on the processing

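Of the 134 called named genes, all but 1 kept their direction in each alternative; the exception was Ear2, with a log2 change of -0.0259 under the leukocyte covariate. The counts of higher and lower genes were 653 and 311 with library weights, 581 and 235 with DESeq2, and 38 and 5 with the leukocyte covariate, which ended 111 of the 134 calls; 315 genes were lower with length and GC removed. Leaving out 1 library gave 162 to 440 higher and 52 to 217 lower genes, and ended up to 59 of the 134 calls. Under the other alternatives both counts stayed within 1.5 times the reported ones. The cause of these moves was not tested. With the replicate number of the labels as a replicate block, 414 genes were higher and 121 lower. Libraries that share a number did not deviate together (r of -0.111, 0.152, -0.111 and 0.06), so the numbers were not taken to pair mice. Low genes are limited by depth: a library's floor of 3 reads lies near the sham values of Mmp9 and S100a8.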

Other observations

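Outside the lists, 4 of the genes with called rises that held under the leukocyte covariate are named after their values were seen. Exoc4, a subunit of the exocyst that tethers secretory vesicles, had 1830, 2010, 1552 and 1898 normalised counts in irradiated and 683, 695, 712 and 734 in sham libraries (1.36 ± 0.0849, adjusted p = 5.41e-08 by limma). Plxna4, a semaphorin receptor gene, had 4776, 5205, 4956 and 4579 in irradiated and 3128, 2949, 2804 and 2930 in sham libraries (0.72 ± 0.0557). Mgmt, which removes alkyl groups from guanine in DNA, had 52.9, 67.8, 58.3 and 61.9 in irradiated and 11.7, 12.7, 22.3 and 20.8 in sham libraries (1.82 ± 0.208). Rev1, a DNA polymerase of translesion synthesis, had 467, 556, 477 and 528 in irradiated and 333, 264, 294 and 303 in sham libraries (0.76 ± 0.0837). The groups of all 4 genes were apart. Npc1, which exports cholesterol from lysosomes, fell under both fits, with 2477, 2148, 2524 and 2428 in irradiated and 3400, 3436, 3357 and 3411 in sham libraries (-0.51 ± 0.0546).

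Genes of cytosolic ribosomal proteins were also looked at after values were seen. Of 78 tested, 77 had a positive log2 change, the median was 0.18, and 6 rose (Rpl13a, Rpl19, Rpl24, Rplp0, Rps19 and Rps27a), where 2.26% of all tested genes rose and 48.1% had a positive change. The count of 6 was 0 without sham 3, sham 4 or irradiated 2 and with the leukocyte covariate, 1 without irradiated 3 or 4, 2 without sham 2, 16 without sham 1 and 25 without irradiated 1. It was 3 with the replicate block or the 2 groups alone, 4 with length and GC removed or without depleted 1 or 2, 14 with DESeq2 and 22 with library weights. Their summed normalised count was 119100, 132200, 143600 and 138100 in irradiated libraries and 127600, 116300, 114200 and 110300 in sham libraries, so the groups overlapped. With length and GC removed, 75 were positive and the median was 0.12; over the fits that left out 1 library, 75 to 78 were positive.

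The 3 largest rises of all were in the predicted genes Gm10800, Gm10801 and Gm10718, which the rule left out. Gm10800 had 3701, 3824, 1837 and 3460 normalised counts in irradiated and 36.1, 55.2, 77.7 and 101 in sham libraries (5.59 ± 0.357), with a mesenchymal log2 change of 8.80. Of its sequence stretches of 31 bases, 37.6% also stood in others of 7 such genes, so reads cannot be assigned to 1 of them with certainty.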
